A study of Mus musculus with 5 samples.

Results

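The 7 homeostatic microglia identity genes Tmem119, Olfml3, Gpr34, Cx3cr1, Sall1, Slc2a5 and Selplg were chosen by name, with earlier results of these data known. They were matched by mouse symbol to the Ensembl identifiers of the count tables, where they are 7 of 55573 genes. Bulk RNA sequencing was performed on the right hemisphere of C57BL/6 females that carried GL261, a mouse glioma cell line transduced with luciferase and mKate2, in the right caudate nucleus-putamen. The mice were grafted at an age of 7 to 8 weeks. The vehicle group (3 libraries, each from 1 mouse) received dilution buffer, and the UMBO group (2 libraries) received ultrasound-mediated blood-brain barrier opening, in which low-intensity pulsed ultrasound is applied just after intravenous microbubbles. Sessions took place on days 21 and 24, and the hemisphere was taken 24 h after the last one. All mice carried the tumor, all tumors came from 1 cell line, and a whole homogenised hemisphere holds tumor cells, brain cells, microglia and blood-derived leukocytes together. In such bulk RNA, more microglia and more RNA of a gene per microglial cell cannot be told apart. The question was whether these genes differed between UMBO and vehicle.

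Microglia are the resident macrophages of the brain parenchyma. They settle there in the embryo and renew themselves locally, and their identity depends on signals from the brain such as TGF-beta and the ligands of the CSF1 receptor. Homeostatic genes are those that microglia express in the undisturbed brain, and many of them are known to decline when microglia take on a disease-associated state or when monocyte-derived macrophages make up more of the myeloid cells. Among the 7 genes, Tmem119 codes for a membrane protein that is used to stain microglia, and Olfml3 for a secreted olfactomedin-like protein that glioma cells can also make. Gpr34 is a receptor for lysophosphatidylserine, and Cx3cr1 is the receptor for the neuronal chemokine fractalkine. Selplg codes for P-selectin glycoprotein ligand, which most leukocytes carry. Slc2a5 is a fructose transporter, and Sall1 a zinc-finger transcription factor needed for microglial identity.

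The genes lie on 6 chromosomes of the mouse genome GRCm38, by the GENCODE M21 annotation. Tmem119 (ENSMUSG00000054675, chromosome 5, 113793729 to 113800516) and Selplg (ENSMUSG00000048163, chromosome 5, 113818536 to 113832644) are neighbors on the reverse strand, 18019 bases apart, with no protein-coding gene and 1 other gene, Gm19931, between them. Olfml3 (ENSMUSG00000027848) is on chromosome 3 (103722222 to 103738001, reverse strand), Cx3cr1 (ENSMUSG00000052336) on chromosome 9 (119901616 to 120069879, reverse), Sall1 (ENSMUSG00000031665) on chromosome 8 (89027235 to 89044162, reverse), Slc2a5 (ENSMUSG00000028976) on chromosome 4 (150119283 to 150144169, forward) and Gpr34 (ENSMUSG00000040229) on chromosome X (13632089 to 13640858, forward). Gpr34 lies inside Cask, which is on the other strand, but shares no exon bases with it. Cx3cr1 shares 78 exon bases, 1.73% of its merged exons, with the antisense gene Gm33858, which had at most 37 reads in a library. No other member shares exon bases with another gene.

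RefSeq promoter windows on GRCm38.p6 were found for 4 of the 7 genes. The promoters of Olfml3, the member with the largest difference between the groups, and of Slc2a5, which showed almost none, are given 5′ to 3′ on the strand of the gene, as far as no annotated exon begins. Capitals mark the GC box GGGCGG on either strand, found 3 times in each, in part abutting or overlapping one another.
Olfml3, chr3:103738002-103738251, reverse strand: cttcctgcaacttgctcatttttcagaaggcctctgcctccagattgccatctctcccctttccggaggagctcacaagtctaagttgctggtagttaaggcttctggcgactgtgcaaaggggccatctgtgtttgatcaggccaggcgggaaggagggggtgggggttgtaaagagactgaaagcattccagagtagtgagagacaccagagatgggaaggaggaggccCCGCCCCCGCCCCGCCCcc
Slc2a5, chr4:150119094-150119235, forward strand: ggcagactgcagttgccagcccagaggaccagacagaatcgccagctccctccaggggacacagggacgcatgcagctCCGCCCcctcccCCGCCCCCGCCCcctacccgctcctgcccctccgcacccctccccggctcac
Of 32851 RefSeq promoters, 32.7% hold a GC box within the 250 bases before the start. The Slc2a5 sequence shown is shorter, at 142 bases. Its full window of 250 bases, which includes exon bases, also held 3 GC boxes and none of the motifs named next. The ETS core GAGGAA, the letters at the center of sites bound by the myeloid factor PU.1, was in neither sequence and is in 23.3% of all promoters. The SMAD palindrome GTCTAGAC (0.167% of promoters), the AP-1 site TGANTCA (6.75%) and a MEF2 site (3.2%) were also searched on both strands, and their letters are in neither sequence. The promoter windows of Sall1, at 3 annotated starts, held 1, 4 and 0 GC boxes and none of the other motifs. That of Cx3cr1, which overlaps an annotated Cx3cr1 exon, held 1 match to the loose MEF2 form and none of the others.

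The libraries held 59736771 to 86164159 counted reads, and the 7 genes together took 0.0170% to 0.0260% of them with vehicle and 0.0334% and 0.0413% with UMBO. All 7 genes passed the filter on low counts. The lowest count of a member was 255 reads, for Slc2a5 in UMBO replicate 2, where counting error is 6.26% of the value. Along the largest component of variation over all 23592 genes tested (78.7% of the variance), UMBO replicate 2 lay apart at 134, against 17.0 in vehicle replicate 2, -14.1 in UMBO replicate 1 and -68.4 and -68.2 in the other vehicle libraries. Mitochondrial genes took 3.36% of its reads and 5.29% to 6.61% elsewhere. Results are therefore also given without UMBO replicate 2 where that changes them. The listed markers of neurons, astrocytes, oligodendrocytes and microglia were present in every library.

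In the UMBO libraries 5 of the 7 genes, Tmem119, Olfml3, Gpr34, Cx3cr1 and Selplg, were above every vehicle library, with fold changes of 1.48 to 2.18, while Sall1 and Slc2a5 lay at 0.955 and 0.973 times the vehicle level. No vehicle library reached a UMBO library in those 5 genes. Such a gap in that direction was present in 11.5% of all genes tested. A log2 fold change above 0 was found for 5 of the 7 and for 50.9% of all genes. No gene, member or other, reached an adjusted p under 0.05 in the edgeR test (quasi-likelihood, 0% of 23592 genes). At an unadjusted p under 0.05, 4 of the 7 were higher, Olfml3, Cx3cr1, Gpr34 and Tmem119, where 5.30% of all genes were higher, and 0 of the 7 were lower, where 2.06% of all genes were. DESeq2's Wald test called the same 4 members higher and 0 lower at an unadjusted p under 0.05 (4.87% and 1.90% of all genes), and 0 of the 7 at an adjusted p (0.112% of all genes higher and 0.0561% lower). Without UMBO replicate 2, 3 of the 7 were higher at an unadjusted edgeR p under 0.05 (1.15% of all genes), namely Olfml3, Cx3cr1 and Gpr34. Every fit without UMBO replicate 1 or 2 leaves a single UMBO library, takes all its spread from the vehicle libraries and assumes that the lone library varies like them. Over the 7 genes the log2 fold change had a median of 0.65, against 0.01 over all genes tested. Because the members were chosen with earlier results of these data known, the comparisons with all genes describe the members and do not test them as a set.

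**Figure D1:**
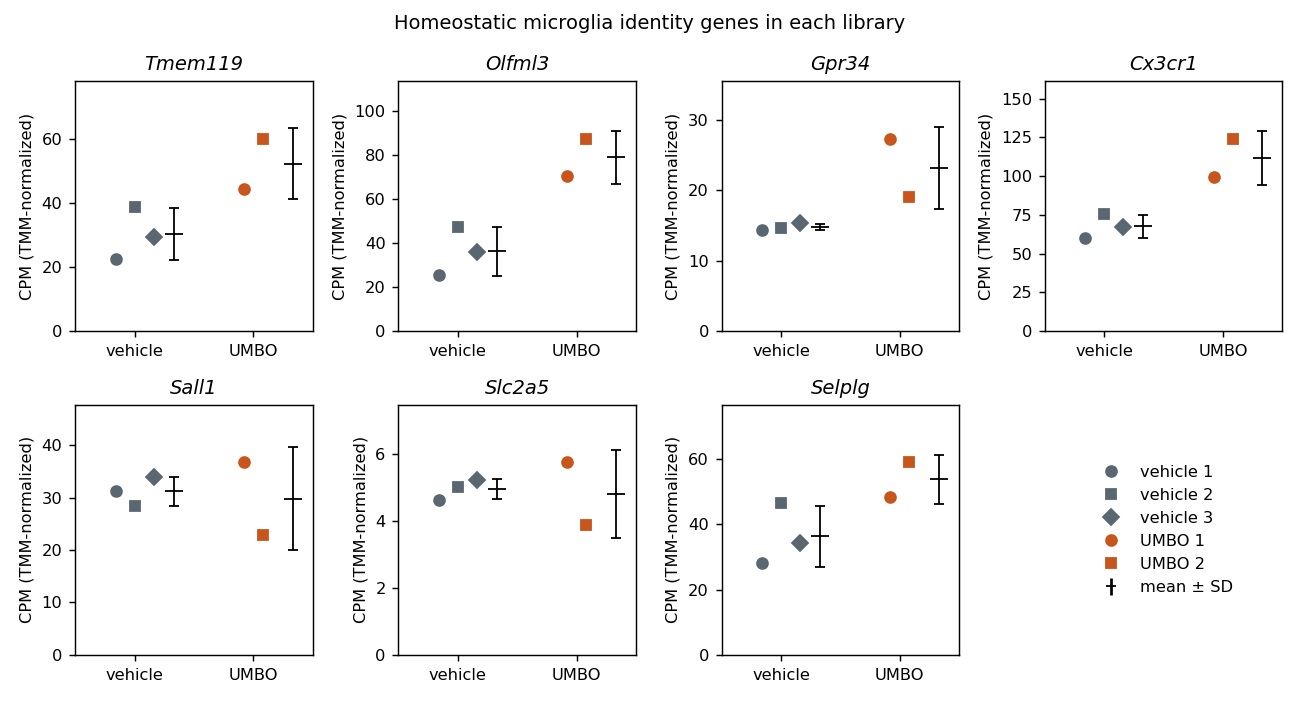
CPM (reads scaled to library total after TMM normalization, vertical axes from 0) of each identity gene in the 3 vehicle (grey) and 2 UMBO (orange) libraries, with the mean ± SD of each group in black. In Tmem119, Olfml3, Gpr34, Cx3cr1 and Selplg both UMBO points are above all vehicle points, and in Sall1 and Slc2a5 the UMBO points lie on either side of them.

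Levels are given in CPM, the reads of a gene scaled to the total of its library after TMM normalization, which adjusts for differences in RNA composition. Tmem119 was at 22.7, 38.9 and 29.4 CPM in vehicle replicates 1 to 3 and at 44.6 and 60.1 CPM in UMBO replicates 1 and 2. The groups did not overlap, but vehicle replicate 2 was not far below UMBO replicate 1. The vehicle mean was 30.3 ± 8.17 CPM (SD, n = 3) and the UMBO mean 52.3 ± 11.0 CPM (SD, n = 2). In edgeR the log2 fold change was 0.79 ± 0.272 (SE), with a 95% interval of 0.12 to 1.45 and an adjusted p of 0.497. The unadjusted edgeR p of 0.0275 was 0.0964 without UMBO replicate 2, 0.0765 without vehicle replicate 1 and 0.0827 without vehicle replicate 3.

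Olfml3 was at 25.3, 47.4 and 36.0 CPM in the vehicle libraries and at 70.5 and 87.4 CPM in the UMBO libraries. The lowest UMBO value was well clear of the highest vehicle value. Group means were 36.2 ± 11.0 CPM (SD, n = 3) for vehicle and 78.9 ± 11.9 CPM (SD, n = 2) for UMBO. The log2 fold change of 1.12 ± 0.285 (SE), with a 95% interval of 0.43 to 1.82, was the largest among the 7 genes. The edgeR adjusted p was 0.497 and the unadjusted p 0.00763, and the unadjusted p lay between 0.00333 and 0.0308 with each library left out in turn.

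Cx3cr1 was at 60.2, 75.4 and 67.3 CPM with vehicle and at 99.6 and 124 CPM with UMBO. Its vehicle libraries lay close together and both UMBO libraries stood above them. Vehicle averaged 67.6 ± 7.59 CPM (SD, n = 3) and UMBO 112 ± 17.3 CPM (SD, n = 2). The log2 fold change was 0.73 ± 0.192 (SE), its 95% interval 0.26 to 1.20 and its edgeR adjusted p 0.497. The unadjusted edgeR p was 0.00926, and between 0.00408 and 0.0459 with each library left out in turn. Without UMBO replicate 1, Cx3cr1 and Olfml3 had edgeR adjusted p values of 0.0396 and 0.0415. That fit, with UMBO replicate 2 alone against vehicle, called 10.1% of all genes higher.

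Gpr34 was at 14.4, 14.7 and 15.3 CPM in the vehicle libraries and at 27.3 and 19.1 CPM in the UMBO libraries. Both UMBO libraries were higher, UMBO replicate 1 by far the more. The vehicle spread of 3.11% of the mean was no larger than the counting error of its lowest library, 3.18%. The mean was 14.8 ± 0.461 CPM (SD, n = 3) with vehicle and, with UMBO, 23.2 ± 5.81 CPM (SD, n = 2). The log2 fold change was 0.65 ± 0.211 (SE; 95% interval 0.13 to 1.16), with an edgeR adjusted p of 0.497 and an unadjusted p of 0.0218. It was 0.34 without UMBO replicate 1 and 0.88 without UMBO replicate 2, and the unadjusted edgeR p was 0.167 without UMBO replicate 1, 0.0726, 0.0551 and 0.0634 without vehicle replicates 1, 2 and 3, and 0.00268 without UMBO replicate 2.

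Selplg was at 28.2, 46.6 and 34.3 CPM with vehicle and at 48.5 and 58.9 CPM with UMBO. The lowest UMBO library and the highest vehicle library were nearly level. Means were 36.3 ± 9.34 CPM (SD, n = 3) and 53.7 ± 7.37 CPM (SD, n = 2). The log2 fold change of 0.56 ± 0.249 (SE) had a 95% interval from -0.05 to 1.17, with an edgeR adjusted p of 0.497 and an unadjusted p of 0.0645. The unadjusted edgeR p was 0.176, 0.0188 and 0.165 without vehicle replicates 1, 2 and 3, and 0.0474 and 0.181 without UMBO replicates 1 and 2.

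Sall1 was at 31.3, 28.3 and 33.9 CPM with vehicle, at 36.7 CPM in UMBO replicate 1 and at 22.9 CPM in UMBO replicate 2. The UMBO libraries were the highest and the lowest of the 5. The log2 fold change was -0.07 ± 0.242 (SE) and the edgeR adjusted p 0.892. Its 95% interval, -0.66 to 0.53, spans levels from 0.633 to 1.44 times that of vehicle.

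Slc2a5 had its highest and lowest values in the same libraries, at 4.63, 5.03 and 5.23 CPM with vehicle and at 5.76 and 3.89 CPM in UMBO replicates 1 and 2. Its log2 fold change was -0.04 ± 0.279 (SE), with a 95% interval of -0.72 to 0.64 and an edgeR adjusted p of 0.946. The sign of both genes turned without UMBO replicate 2, to log2 fold changes of 0.24 for Sall1 and 0.22 for Slc2a5. It also turned with scaling by library size only, to 0.036 and 0.060, a scaling that moves the median of all genes to 0.13.

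**Figure D2:**
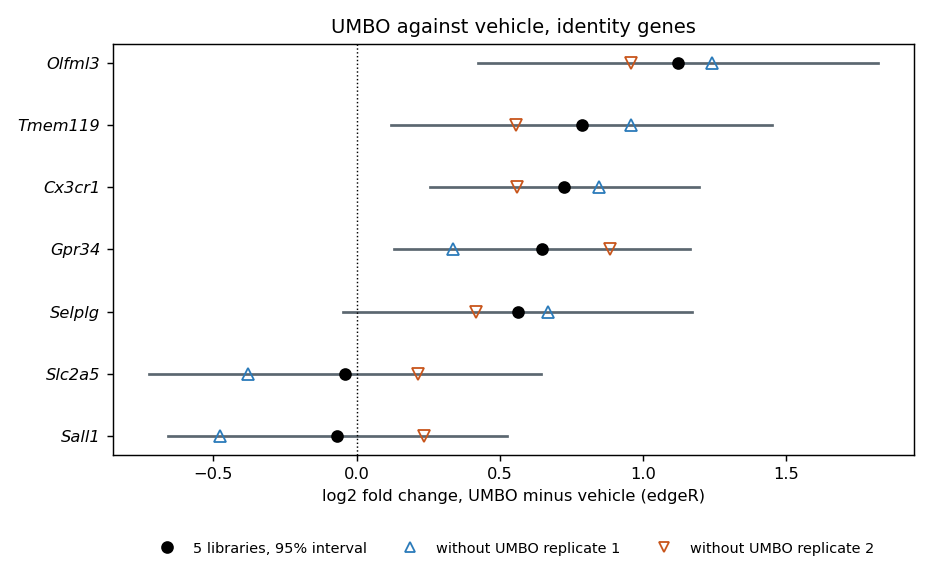
Log2 fold change of each identity gene, UMBO minus vehicle, from edgeR with all 5 libraries (black points) with its 95% interval (lines), and without UMBO replicate 1 (blue triangles) or UMBO replicate 2 (orange triangles). The intervals of Olfml3, Tmem119, Cx3cr1 and Gpr34 lie above 0, that of Selplg reaches -0.05, and Sall1 and Slc2a5 change sign with the UMBO library that is left out.

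The 7 genes did not vary in the same way among libraries of the same group. Olfml3, Tmem119, Cx3cr1 and Selplg were higher in UMBO replicate 2 than in UMBO replicate 1, as were 49.9% of all genes, and in all 4 vehicle replicate 2 was the highest vehicle library, as it was in 39.3% of all genes. Gpr34, Sall1 and Slc2a5 were lower in UMBO replicate 2 than in UMBO replicate 1. Among the vehicle libraries Sall1 was lowest in vehicle replicate 2, as were 37.3% of all genes. The median over the 7 genes of the log2 level minus the vehicle mean was -0.16, 0.16 and 0.04 with vehicle, and 0.57 and 0.73 with UMBO.

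Each gene was next set against the geometric mean of the other 6 in the same library, a ratio that does not depend on how libraries are scaled. Such a ratio shows only unequal change among the genes. With 3 libraries against 2 there are 10 groupings, so an exact permutation test cannot give a p under 0.1. Slc2a5 was lower relative to the others in both UMBO libraries, with log2 ratios of -2.57, -2.88 and -2.65 with vehicle and -3.11 and -3.69 with UMBO. The difference was -0.70 (2-sided exact permutation test, p = 0.1, adjusted p over the 7 genes 0.35). Sall1 had ratios of 0.64, 0.02 and 0.49 with vehicle and 0.01 and -0.72 with UMBO, a difference of -0.74 (exact permutation test, p = 0.2, adjusted p 0.35). Vehicle replicate 2 and UMBO replicate 1 were nearly level for Sall1. Olfml3 lay at the other end, with ratios of 0.28, 0.88 and 0.59 against 1.10 and 1.53, a difference of 0.73 (exact permutation test, p = 0.2, adjusted p 0.35). The ratios of Tmem119, Cx3cr1, Gpr34 and Selplg overlapped between the groups, with differences of 0.32, 0.22, 0.11 and 0.06. Without UMBO replicate 2 the differences were -0.41 for Slc2a5, -0.38 for Sall1 and 0.52 for Olfml3.

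**Figure D3:**
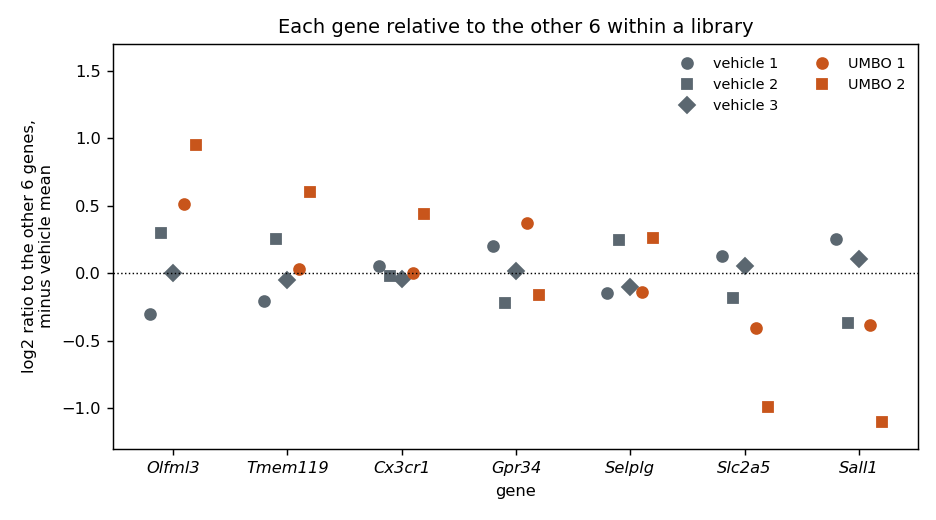
Log2 ratio of each identity gene to the geometric mean of the other 6 in the same library, minus the mean of that ratio over the vehicle libraries, for vehicle (grey) and UMBO (orange) libraries. Both UMBO points of Olfml3 lie above the vehicle points, both of Slc2a5 and Sall1 lie below them, and the others overlap.

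Levels of different genes were compared per kilobase of merged exon. In the vehicle libraries Cx3cr1 was highest at 15.0 ± 1.69 CPM per kilobase (SD, n = 3), before Tmem119 at 13.1 ± 3.53 and Selplg at 8.51 ± 2.19. Gpr34 was at 7.07 ± 0.220, Sall1 at 5.93 ± 0.536 and Olfml3 at 5.88 ± 1.79. Slc2a5 was lowest at 1.46 ± 0.0906 CPM per kilobase, below every library of every other member. Among the other neighbors in this order only Gpr34 and Sall1 did not overlap between the vehicle libraries. With UMBO, Olfml3 stood in the place after Tmem119, at 12.8 ± 1.94 CPM per kilobase (SD, n = 2), beside Selplg at 12.6 ± 1.73 and Gpr34 at 11.1 ± 2.78. Cx3cr1 and Tmem119 were at 24.8 ± 3.85 and 22.6 ± 4.75, and Sall1 and Slc2a5 at 5.66 ± 1.86 and 1.42 ± 0.387. The place of Selplg depends on the length used: per kilobase of its longest transcript it was at 15.7 ± 4.04 with vehicle, beside Cx3cr1 at 15.1 ± 1.69.

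Tmem119 and Selplg, the neighbors on chromosome 5, kept a similar proportion, with Selplg lower relative to Tmem119 in both UMBO libraries. Cx3cr1, on another chromosome, had a similar profile, and a link between this likeness and position was not tested. In UMBO replicates 1 and 2 the log2 level minus the vehicle mean was 0.57 and 0.88 for Cx3cr1. It was 0.59 and 1.02 for Tmem119 and 0.45 and 0.73 for Selplg. The log2 ratio of Selplg to Tmem119 in CPM was 0.32, 0.26 and 0.22 with vehicle and 0.12 and -0.03 with UMBO, a range of 0.35 over the 5 libraries. The difference of -0.22 had a p of 0.1 in a 2-sided exact permutation test, the smallest possible (adjusted p 0.1 over the 3 pairs compared, which were chosen after the levels were seen). Sall1 to Cx3cr1 had log2 ratios of -0.94, -1.41 and -0.99 with vehicle and -1.44 and -2.44 with UMBO, a difference of -0.83 (exact permutation test, p = 0.1, adjusted p 0.1). UMBO replicate 1 and vehicle replicate 2 were nearly level in this ratio, and the difference was -0.33 without UMBO replicate 2.

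The receptor Cx3cr1 was higher and its ligand lower in the UMBO libraries. Cx3cl1, which codes for fractalkine and is made mainly by neurons, was at 701, 527 and 477 CPM with vehicle and at 458 and 247 CPM with UMBO, a log2 fold change of -0.69 ± 0.354 (SE) and an unadjusted edgeR p of 0.0994. Both UMBO libraries were the lowest, as in 11.4% of all genes. The log2 ratio of Cx3cl1 to Cx3cr1 was 3.54, 2.80 and 2.82 with vehicle and 2.20 and 0.99 with UMBO, a difference of -1.46 (exact permutation test, p = 0.1, adjusted p 0.1) that was -0.86 without UMBO replicate 2. This pair was also chosen after the levels were seen, so its p is a description and not independent support. The 8 neuron markers had a summed level of 5241 to 8067 CPM with vehicle, 5464 CPM in UMBO replicate 1 and 2601 CPM in UMBO replicate 2, and their part in the Cx3cl1 result was not tested. Of the sheddases of fractalkine, Adam17 was higher in both UMBO libraries (log2 fold change 0.49, unadjusted edgeR p 0.0442) and Adam10 was at -0.03. With vehicle replicate 1, 2 or 3 left out, 0 of the 3 genes Cx3cl1, Adam10 and Adam17 had an unadjusted edgeR p under 0.05.

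Of the 7 tested genes for selectins and for enzymes that modify Selplg, 1 had an unadjusted edgeR p under 0.05, Selp, and all 7 had a log2 fold change above 0, with a median of 0.58. Selp, the endothelial and platelet selectin that binds Selplg, was at 0.147, 0.178 and 0.260 CPM with vehicle and at 0.374 and 1.91 CPM with UMBO, a log2 fold change of 2.53 ± 0.723 (SE, unadjusted edgeR p 0.0130). Most of that size came from UMBO replicate 2. Sele had too few counts to be tested. Gcnt1, which builds the branched sugars that selectins bind, was higher in both UMBO libraries (log2 fold change 0.58, unadjusted edgeR p 0.0562). Without UMBO replicate 2 the median of the 7 genes was 0.17 and 0 had an unadjusted edgeR p under 0.05.

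For Gpr34, 0 of the 6 genes that make, break down or sense lysophosphatidylserine had an unadjusted edgeR p under 0.05. Pla1a, a phospholipase that releases the lipid, was at 1.16, 2.03 and 1.41 CPM with vehicle and at 1.76 and 4.78 CPM with UMBO, a log2 fold change of 1.09 ± 0.503 (SE) with groups that overlapped. Abhd16a, a lipase that forms the lipid, was at -0.15. For Slc2a5, 0 of 7 sugar transporters and fructose enzymes had an unadjusted edgeR p under 0.05, with a median log2 fold change of 0.03. The glucose transporter Slc2a1, abundant at the blood-brain barrier, was at 62.8, 80.0 and 80.8 CPM with vehicle and at 94.9 and 104 CPM with UMBO (log2 fold change 0.42, unadjusted edgeR p 0.0698). The neuronal glucose transporter Slc2a3 was at -0.25 on the same log2 scale. Of 5 olfactomedin-like and BMP genes set beside Olfml3, 1 was higher at an unadjusted edgeR p under 0.05, Bmp4, at 4.40, 5.80 and 4.63 CPM with vehicle and 14.7 and 9.47 CPM with UMBO (log2 fold change 1.29 ± 0.283, SE; unadjusted edgeR p 0.00391). Without UMBO replicate 2, 2 of the 5 were higher. The Olfml3 relatives Olfml1, Olfml2a and Olfml2b, at -0.53, -0.19 and 0.61, had overlapping groups.

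Among 9 Sall family members and transcription factors of microglia, 3 were higher at an unadjusted edgeR p under 0.05 and 0 lower, with a median log2 fold change of 0.85. Spi1, which codes for PU.1, was at 4.28, 13.3 and 5.66 CPM with vehicle and at 11.8 and 36.9 CPM with UMBO, so that vehicle replicate 2 lay above UMBO replicate 1 (log2 fold change 1.65 ± 0.641, SE, unadjusted edgeR p 0.0420). Irf8, its partner in myeloid cells, showed the same order of libraries and a log2 fold change of 1.49 ± 0.637 (SE). Runx1 had a log2 fold change of 1.03, with both UMBO libraries above vehicle. Mef2c, which neurons express too, was lower in both UMBO libraries, with a log2 fold change of -0.93 and an unadjusted edgeR p of 0.0774, and Smad3 and Sall2 were at -0.27 and -0.19. Without UMBO replicate 2 the median of these 9 genes was 0.39. With vehicle replicate 1, 2 or 3 left out, 0, 5 and 0 of the 9 were higher at an unadjusted edgeR p under 0.05. Unlike Spi1 and Irf8, Sall1 was lower in UMBO replicate 2 than in every other library.

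Of 11 ligands and receptors that maintain microglial identity, 5 were higher at an unadjusted edgeR p under 0.05 and 0 lower. Their median log2 fold change was 0.51 (0.43 without UMBO replicate 2). With vehicle replicate 1, 2 or 3 left out, 0, 4 and 0 of the 11 were higher at that threshold. Tgfb1, the TGF-beta ligand, was at 8.08, 18.3 and 10.4 CPM with vehicle and at 20.8 and 49.7 CPM with UMBO, a log2 fold change of 1.52 ± 0.479 (SE). Its receptors Tgfbr2 and Tgfbr1 had log2 fold changes of 0.51 and 0.29, with unadjusted edgeR p of 0.0357 and 0.178. Csf1r, the receptor on which microglial survival depends, was at 99.1, 141 and 127 CPM with vehicle and at 190 and 173 CPM with UMBO (log2 fold change 0.57 ± 0.217, SE, unadjusted edgeR p 0.0384). Its ligands differed in direction of value, with Csf1 at 0.68 (unadjusted edgeR p 0.0240) and the neuronal ligand Il34 at -0.21 (unadjusted edgeR p 0.389).

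Other homeostatic genes of microglia were described beside the 7. There were 21 such genes, and some, such as Sall3, Csf1r and Tgfbr1, also belong to lists above. At an unadjusted edgeR p under 0.05, 11 of the 21 were higher and 0 lower, and 13 lay above every vehicle library in both UMBO libraries. The median log2 fold change was 0.62 (0.53 without UMBO replicate 2). With vehicle replicate 1, 2 or 3 left out, 3, 12 and 3 of the 21 were higher at that threshold. Fcrls had the smallest p of the list, at 16.7 ± 0.730 CPM (SD, n = 3) with vehicle and at 51.3 and 50.4 CPM in the UMBO libraries (log2 fold change 1.60 ± 0.149, SE), and Ltc4s, an enzyme of leukotriene synthesis, followed with 1.17 ± 0.295. Siglech was at 0.28 ± 0.195 on that scale. P2ry12, the ADP receptor, was at 37.6, 31.9 and 42.8 CPM with vehicle and at 51.7 and 20.8 CPM with UMBO, the order of libraries that Sall1 had. Upk1b and Rtn4rl1 were at -0.44 and -0.15.

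**Figure D4:**
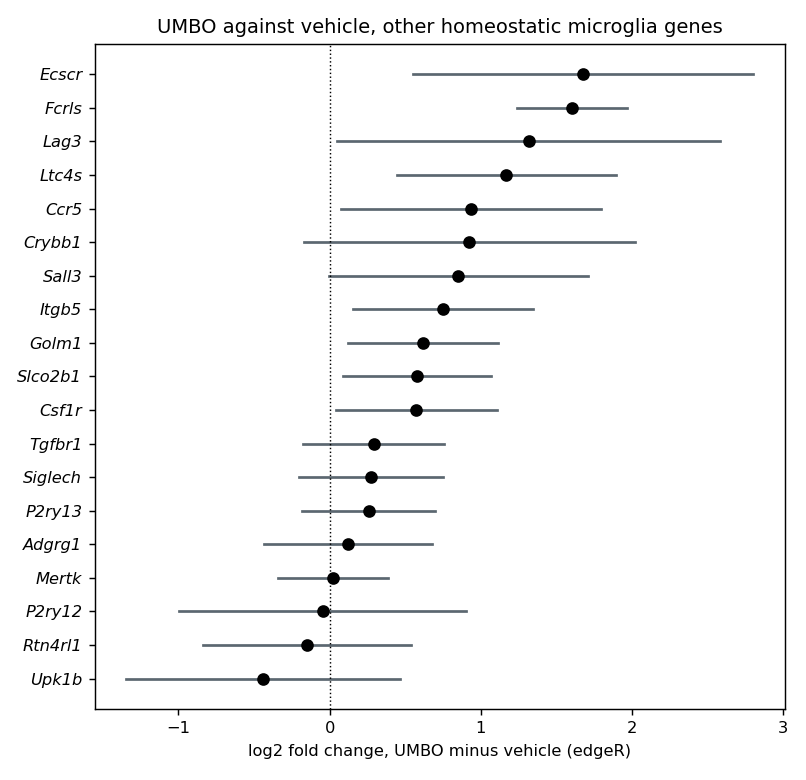
Log2 fold change, UMBO minus vehicle, of 19 further genes of homeostatic microglia from edgeR (points) with 95% intervals (lines). The intervals of 9 genes lie above 0, and P2ry12, Rtn4rl1 and Upk1b are the 3 genes with points below 0.

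The 5 genes outside the 7 whose levels over the 5 libraries were most like the median profile of the members were Islr, Vsir, Ndufa4l2, Tmem198b and P3h2, among 14559 genes with a mean log2 CPM of at least 1. Likeness was the root mean square distance between log2 levels centered on each gene's mean, from 0.04 to 0.05 for these 5 genes. Vsir, an immune checkpoint receptor of myeloid cells, was at 28.9, 40.4 and 35.5 CPM with vehicle and at 49.8 and 58.9 CPM with UMBO. Among the members themselves the distance was 0.06 for Cx3cr1, 0.10 for Selplg and 0.16 for Tmem119, and it was largest for Slc2a5 (0.44) and Sall1 (0.50). With 5 libraries many genes can share a profile, and this is a description only.

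Markers of other cells and states differed along with the members, and their part in the results was not tested. The 10 proliferation genes, all at an unadjusted edgeR p under 0.05, had a summed level of 35.7 to 110 CPM with vehicle, 115 CPM in UMBO replicate 1 and 484 CPM in UMBO replicate 2, and 1 of them passed that threshold without UMBO replicate 2. For 18 disease-associated microglia genes the sum was 2135 to 3261 CPM with vehicle and 3391 and 6283 CPM with UMBO, and 9 of the 18 were higher at an unadjusted edgeR p under 0.05 (4 without UMBO replicate 2). Much of this sum came from a few genes of high level. The median log2 level of the 18 minus the vehicle mean was -0.46, 0.66 and -0.21 with vehicle and 0.86 in UMBO replicate 1. Spp1, a secreted phosphoprotein of activated myeloid cells, was at 9.24, 17.9 and 17.8 CPM with vehicle and at 33.9 and 237 CPM with UMBO. For the tetraspanin Cd9 the log2 fold change was 1.49 ± 0.363 (SE). For 12 monocyte and macrophage markers the sum was 127 to 185 CPM with vehicle, 125 CPM in UMBO replicate 1 and 367 CPM in UMBO replicate 2, and 1 of the 12, Chil3, was higher at an unadjusted edgeR p under 0.05 (0 without UMBO replicate 2). Much of this sum came from Nr4a1, an immediate early gene that many cells express, at 75.6, 67.9 and 52.1 CPM with vehicle and at 34.2 and 51.3 CPM with UMBO. The median log2 level of the 12 minus the vehicle mean was -0.97, 1.15 and -0.33 with vehicle and 0.33 in UMBO replicate 1. No marker of these 3 lists was at 0 in any library. In UMBO replicate 2 the median log2 level minus the vehicle mean was 2.91 for proliferation, 3.19 for monocytes and macrophages and 2.41 for disease-associated genes, against 0.73 for the members.

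**Figure D5:**
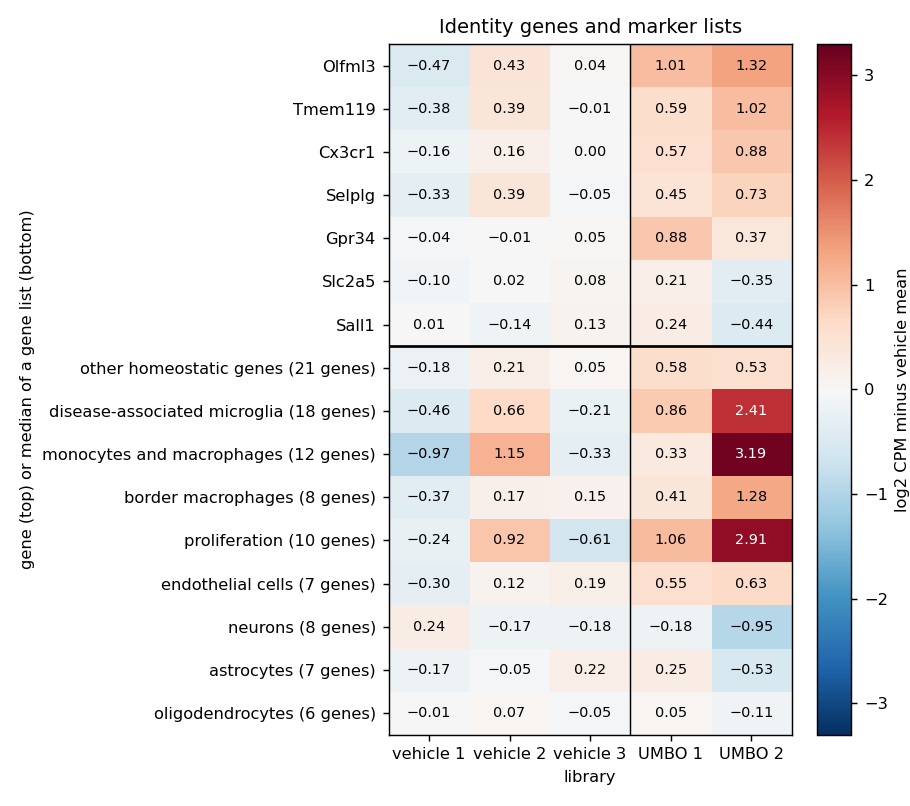
Log2 CPM minus the vehicle mean in each library for the 7 identity genes (top) and the median over each list of marker genes (bottom), red above and blue below the vehicle mean. UMBO replicate 2 is at 2.91 for proliferation and 3.19 for monocytes and macrophages, while UMBO replicate 1 is at 1.06 and 0.33, and Olfml3 is at 1.01 and 1.32 in UMBO replicates 1 and 2.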

How the data were processed

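RNA of the right hemisphere was sequenced, and libraries of 3 vehicle and 2 UMBO mice were used. Any further UMBO mouse of the study was not analysed here. The authors mapped reads with STAR 2.7.2a to GRCm38 (per the submitters' processing notes) and deposited raw gene counts. Annotation release and strand use are not given in the sources used here. GENCODE M21, on the same build, named 55394 of 55573 genes, and the unnamed genes held no more than 0.101% of any library. No 2 libraries agreed within sampling noise.

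Counts were normalized by TMM, filtered with filterByExpr (23592 genes) and fitted with edgeR 4.0.16 (R 4.3.3, quasi-likelihood F test, group as the only term). P-values were adjusted by the Benjamini-Hochberg procedure over all genes, at a threshold of 0.05, and DESeq2 1.42.0 was an alternative, with the other alternatives given at the end. The fit was tested on simulated data in which 200 genes changed 4-fold. At the spread between libraries estimated here, it called 100 of the 200, and 6 unchanged genes, at an adjusted p under 0.05. At a low dispersion of 0.01 it called 193 of them. A gene that was not called may therefore still have changed. The number of mice, more than depth, limits the precision.

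The 7 members and all gene lists were chosen with earlier results of these data known, so no list was tested. Named were all members, in each list the pair of genes of smallest p on either side of 0, single direct partners and well-known homeostatic genes, and the 5 genes of most similar profile. The 3 gene pairs were chosen after values were seen. Some listed genes are counted in their lists but not reported here by name.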

Additional observations from a re-analysis of the deposited data

How the results depend on the processing

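With 2 UMBO libraries, of which replicate 2 stands apart, the size of each difference rests on few mice, and in the UMBO group the spread of every member was larger than its counting error. Log2 fold changes of Tmem119, Olfml3, Gpr34, Cx3cr1 and Selplg kept their sign in every alternative run. With scaling by library size only Sall1 and Slc2a5 turned to 0.036 and 0.060. Leaving out single libraries gave log2 fold changes of 0.56 to 0.85 for Cx3cr1, 0.92 to 1.39 for Olfml3, -0.48 to 0.24 for Sall1 and -0.38 to 0.22 for Slc2a5, the highest of the last pair without UMBO replicate 2, and a median of the 7 of 0.56 to 0.81. With vehicle replicate 1, 2 or 3 left out, 2, 4 and 2 members were higher at an unadjusted edgeR p under 0.05. Over all genes these fits called 194, 2164 and 217 higher. At an adjusted p 0 members and 0 of all genes were higher in each. The number of members without overlap is not given for the fits with a library left out. With fewer libraries that rule is easier to meet, and the share of all genes without overlap was not counted there.

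Over all genes these fits called 0 to 2507 higher and 0 to 2036 lower at an edgeR adjusted p under 0.05, the highest without UMBO replicate 1, and 194 to 5310 higher and 102 to 4855 lower at an unadjusted p, against 1251 and 487. With no filter on low counts the unadjusted counts were 2954 and 1146, with more genes tested. DESeq2's Wald test gave 1970 and 768 of 40434 genes, shares of 4.87% and 1.90%, against 5.30% and 2.06% of 23592 genes in edgeR. At an adjusted p DESeq2 gave 26 and 13, and the cause of that difference from edgeR was not tested. Relative to the other 6 members, Gpr34 ranged from -0.16 to 0.37 and Selplg from -0.14 to 0.26 with a library left out (lowest without UMBO replicates 1 and 2, respectively), and Selplg was at -0.034 against the 21 other homeostatic genes. Per kilobase of longest transcript Selplg was at 15.7 and Slc2a5 at 1.57 CPM.

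The groups share replicate numbers 1 and 2, with correlations of deviations from the group mean of 0.453 and 0.760. With 2 UMBO libraries the deviation of replicate 1 is the negative of that of replicate 2. The 2 correlations are therefore not independent, and they do not show that the numbers mark pairs. Nothing says that a number marks a shared litter or day. With the replicate number as a block, 3 members passed an edgeR adjusted p under 0.05, Olfml3 at a log2 fold change of 1.18, Tmem119 at 0.80 and Cx3cr1 at 0.72, while 1428 of all genes (6.05%) were higher and 909 lower (3396 and 2738 at an unadjusted p).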

Other observations

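Cells at the border of the brain and in its vessels were described less above. Of 8 markers of border-associated macrophages, 2 were higher at an unadjusted edgeR p under 0.05 and 0 lower, with a median log2 fold change of 0.89 that was 0.38 without UMBO replicate 2. Stab1, a scavenger receptor, was at 18.2, 21.8 and 23.5 CPM with vehicle and at 32.5 and 50.6 CPM with UMBO, and for Cbr2 the log2 fold change was 1.35 ± 0.474 (SE). Of 7 endothelial markers 4 were higher at an unadjusted edgeR p under 0.05, with a median log2 fold change of 0.58 (0.53 without UMBO replicate 2). With vehicle replicate 1, 2 or 3 left out, 1, 3 and 1 of the 7 were higher at that threshold. The tight junction gene Cldn5 was at 15.8, 29.4 and 19.6 CPM with vehicle and at 38.9 and 57.1 CPM with UMBO. The 9 lymphocyte markers summed to 16.4 to 25.6 CPM with vehicle, 9.77 CPM in UMBO replicate 1 and 32.5 CPM in UMBO replicate 2. Much of this sum came from Cd4, at 14.6, 14.0 and 7.31 CPM with vehicle and at 4.56 and 8.31 CPM with UMBO, and the median log2 level of the 9 minus the vehicle mean was -0.95, 0.58 and 0.06 with vehicle and -0.59 and 1.82 with UMBO. Neutrophil markers were scarce, at a summed 0.449 to 1.72 CPM with vehicle and 0.936 and 5.71 CPM with UMBO, and Ly6g, Camp and Mmp8 had too few counts to be tested. Oligodendrocyte markers had a median log2 fold change of -0.04, and 0 of 6 had an unadjusted edgeR p under 0.05. Astrocyte markers had a median of 0.00, with 0 of 7 at an unadjusted edgeR p under 0.05, and choroid plexus markers one of -0.35, with 0 of 5. These lists were chosen with earlier results of these data known.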
